A study of Mus musculus with 10 samples.

Results

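The 10 genes described here, Fos, Fosb, Junb, Egr1, Egr2, Nr4a1, Nr4a2, Arc, Dusp1 and Ier2, are immediate early genes, which cells transcribe within minutes of a signal and without new protein synthesis. In neurons, calcium and kinase cascades act on factors that already sit at their promoters, such as CREB at cAMP response elements (CRE) and the serum response factor at CArG boxes. In the cerebral cortex their short-lived RNA is widely read as a trace of recent neuronal activity. The genes were taken by name, and all their annotated probe sets were used. These were 10 of 12393 genes and 12 of 22626 probe sets, with 2 each for Egr2 and Nr4a2 and 1 for each of the other 8 genes.

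Cortex RNA was hybridised from 10 male mice of 6 months, 5 with the label *p97FE65* wild type and 5 with the label *p97FE65* null, with 1 Affymetrix mouse array for each animal. Null mice lack the full-length form of FE65, an adaptor protein that binds the amyloid precursor protein, through targeting of the FE65 gene in R1 embryonic stem cells. The line was backcrossed to C57Bl/6J, and sequence of the stem cell strain around the targeted locus was retained. The mice are described as littermate pairs, but which arrays form a pair, how the mice were handled before dissection and at what hour it was done are not given in the sources used here. Levels are GC-RMA values on the log2 scale, so that 1 unit is a 2-fold change, and a probe set with a mean under 5 is called dim. Array medians lay between 3.01 and 3.14, and every 2 arrays correlated at 0.994 to 0.999 over all probe sets. Of the 4 cortical excitatory neuron markers measured, Tbr1 (mean 7.70), Neurod6 (8.84) and Rorb (6.85) were above that level, and Cux2 (4.05) was dim.

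Promoter sequence was taken from RefSeq (build GRCm38.p6) for 7 of the 10 genes, in windows of 300 bases that run from 250 before the transcription start to 50 after it. The windows of 6 are shown because each of their genes was in at least 1 of the pairs that passed the test of correlation across mice. Capitals mark matches on either strand to the full CRE TGACGTCA, to the half-site TGACG, to the CArG box and to TATAAA. A full CRE holds 2 overlapping half-sites, 1 on each strand.
Fos, chr12:85473640-85473939 (plus strand): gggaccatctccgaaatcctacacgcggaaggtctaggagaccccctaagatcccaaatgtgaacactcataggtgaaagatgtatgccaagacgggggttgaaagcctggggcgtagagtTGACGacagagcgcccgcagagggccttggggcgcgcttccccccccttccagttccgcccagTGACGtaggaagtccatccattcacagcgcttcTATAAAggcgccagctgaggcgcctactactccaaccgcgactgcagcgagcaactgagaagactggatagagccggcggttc
Junb, chr8:84978699-84978998 (minus strand): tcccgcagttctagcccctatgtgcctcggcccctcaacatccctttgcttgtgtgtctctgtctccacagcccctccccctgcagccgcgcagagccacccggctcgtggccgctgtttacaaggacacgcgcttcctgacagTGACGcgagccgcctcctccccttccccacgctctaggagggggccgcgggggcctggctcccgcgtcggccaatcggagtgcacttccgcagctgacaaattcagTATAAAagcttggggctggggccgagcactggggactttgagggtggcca
Nr4a1, chr15:101266596-101266895 (plus strand): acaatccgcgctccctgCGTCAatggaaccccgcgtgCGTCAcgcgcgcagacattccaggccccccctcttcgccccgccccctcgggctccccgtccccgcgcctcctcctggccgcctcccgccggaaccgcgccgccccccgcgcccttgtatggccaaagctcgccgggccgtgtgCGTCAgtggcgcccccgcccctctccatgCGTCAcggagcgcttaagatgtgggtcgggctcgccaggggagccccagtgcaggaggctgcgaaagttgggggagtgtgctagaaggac
Dusp1, chr17:26508423-26508722 (minus strand): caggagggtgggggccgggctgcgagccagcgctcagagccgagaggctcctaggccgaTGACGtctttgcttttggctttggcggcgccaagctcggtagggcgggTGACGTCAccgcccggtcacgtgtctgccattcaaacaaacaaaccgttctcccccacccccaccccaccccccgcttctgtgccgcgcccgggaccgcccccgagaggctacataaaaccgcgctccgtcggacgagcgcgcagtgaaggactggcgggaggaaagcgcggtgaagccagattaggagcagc
Nr4a2, chr2:57123954-57124253 (minus strand): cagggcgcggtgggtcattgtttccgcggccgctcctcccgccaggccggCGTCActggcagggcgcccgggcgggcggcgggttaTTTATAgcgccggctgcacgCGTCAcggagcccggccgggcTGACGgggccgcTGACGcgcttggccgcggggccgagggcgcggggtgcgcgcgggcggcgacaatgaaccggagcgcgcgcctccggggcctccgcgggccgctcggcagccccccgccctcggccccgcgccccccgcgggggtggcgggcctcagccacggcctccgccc
Egr2, chr10:67537619-67537918 (plus strand): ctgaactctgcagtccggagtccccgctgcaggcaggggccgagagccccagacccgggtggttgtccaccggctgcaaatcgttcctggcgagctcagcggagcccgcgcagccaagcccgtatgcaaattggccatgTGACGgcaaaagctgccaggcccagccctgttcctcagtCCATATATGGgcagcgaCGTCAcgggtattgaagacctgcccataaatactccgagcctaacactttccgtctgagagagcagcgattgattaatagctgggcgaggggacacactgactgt
Of the 11 windows listed for the 7 genes 9 held a half-site, with at least 1 for each gene, and 20.8% of 32851 promoters of this length hold one. The 2 without were other starts of Egr2, and 3 of the 9 were Egr2 windows that overlap and share the same 2 half-sites. The full CRE occurred in the Dusp1 window alone, as 2 of its 3 half-sites, and 1.79% of promoters hold it. The Nr4a1 and Nr4a2 windows held 4 half-sites each, that of Fos 2 and that of Junb 1. A CArG box, which 1.63% of promoters hold, was found in the Egr2 window, beside 2 half-sites. The letters TATAAA, held by 13.6% of promoters, lay in the windows of Fos, Junb and Nr4a2. Egr2 has 5 listed starts, of which 1 is shown and 4 have a CArG box in their window, the same box in the 3 that overlap. These matches describe the letters and are not evidence of binding.

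Of the AP-1 genes, Fos, whose protein pairs with Jun proteins to bind DNA, stood at 9.82, 9.88, 10.79, 9.98 and 9.11 in labelled wild type mice 1 to 5. In labelled null mice 1 to 5 it stood at 9.94, 8.81, 10.87, 10.04 and 9.49. Mouse 3 of each label was highest and null mouse 2 and wild type mouse 5 were lowest, so that the groups overlapped over a 4.17-fold range. Junb, which encodes a Jun partner of Fos, stood at 5.53, 5.28, 5.68, 5.63 and 4.56 in labelled wild type and at 5.21, 4.25, 5.37, 5.65 and 4.53 in labelled null mice. Its 3 lowest mice, wild type 5 and null 2 and 5, were also the 3 lowest for Fos, and the other 7 lay within 5.21 to 5.68. Fosb, a close relative of Fos, was dim in every mouse (3.56 to 3.95), and its SD of 0.12 over 10 mice was, to this precision, the median SD of all probe sets.

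Both zinc finger genes of the Egr family overlapped between the labels. Egr2 (1427683_at) stood at 5.72, 6.63, 6.59, 6.34 and 5.81 in labelled wild type and at 5.91, 5.82, 7.57, 6.65 and 6.12 in labelled null mice. Null mouse 3 stood alone at the top, and the gap below it took 49.7% of the 3.61-fold range. The dim second probe set of Egr2, 1427682_a_at, had the same highest mouse (3.76, against 1.72 to 2.92 in the other 9) and followed the first with r = 0.89. Egr1, a factor of synaptic plasticity in rodents, varied less, over 12.98 to 13.60 in labelled null and 12.82 to 13.45 in labelled wild type mice, a 1.72-fold range.

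The nuclear receptor genes Nr4a1 and Nr4a2, which encode orphan receptors, shared only 1 of their 3 lowest mice, wild type 5, by the brightest probe set of each. Nr4a1 stood at 8.23, 8.39, 8.37, 8.57 and 7.67 in labelled wild type and at 8.42, 7.33, 8.24, 8.33 and 7.75 in labelled null mice, lowest in the same 3 mice as Fos and Junb. Nr4a2 (1450750_a_at) stood at 7.01, 7.63, 7.96, 7.72 and 7.48 in labelled wild type and at 7.64, 7.64, 8.31, 7.59 and 7.91 in labelled null mice. It was lowest in wild type mouse 1, and null mouse 5, low for Fos, was among its 3 highest. The dim probe set 1450749_a_at of Nr4a2 ranged from 2.45 to 2.97 and correlated with the other at r = 0.59. It was lowest in wild type mouse 5 and null mice 1 and 2.

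Of the effector genes, Arc, whose protein acts at synapses on AMPA receptor endocytosis, stood at 10.56, 10.09, 10.65, 10.23 and 8.99 in labelled wild type mice. In labelled null mice it stood at 10.30, 9.04, 10.51, 10.23 and 8.74. Wild type mouse 5 and null mice 2 and 5 lay apart from the other 7, and the gap between took 54.9% of a 3.77-fold range. Dusp1, a phosphatase that switches off MAP kinases, stood at 9.88, 9.90, 10.15, 9.69 and 9.28 in labelled wild type and at 9.52, 8.77, 9.97, 9.81 and 9.35 in labelled null mice. The same 3 mice were lowest for Dusp1, with null mouse 2 well under the others. Ier2, a nuclear protein induced by growth factors, ranged from 4.66 to 5.49 and from 4.64 to 5.47 under the same labels, 1.80-fold over all, again lowest in those 3.

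**Figure D1:**
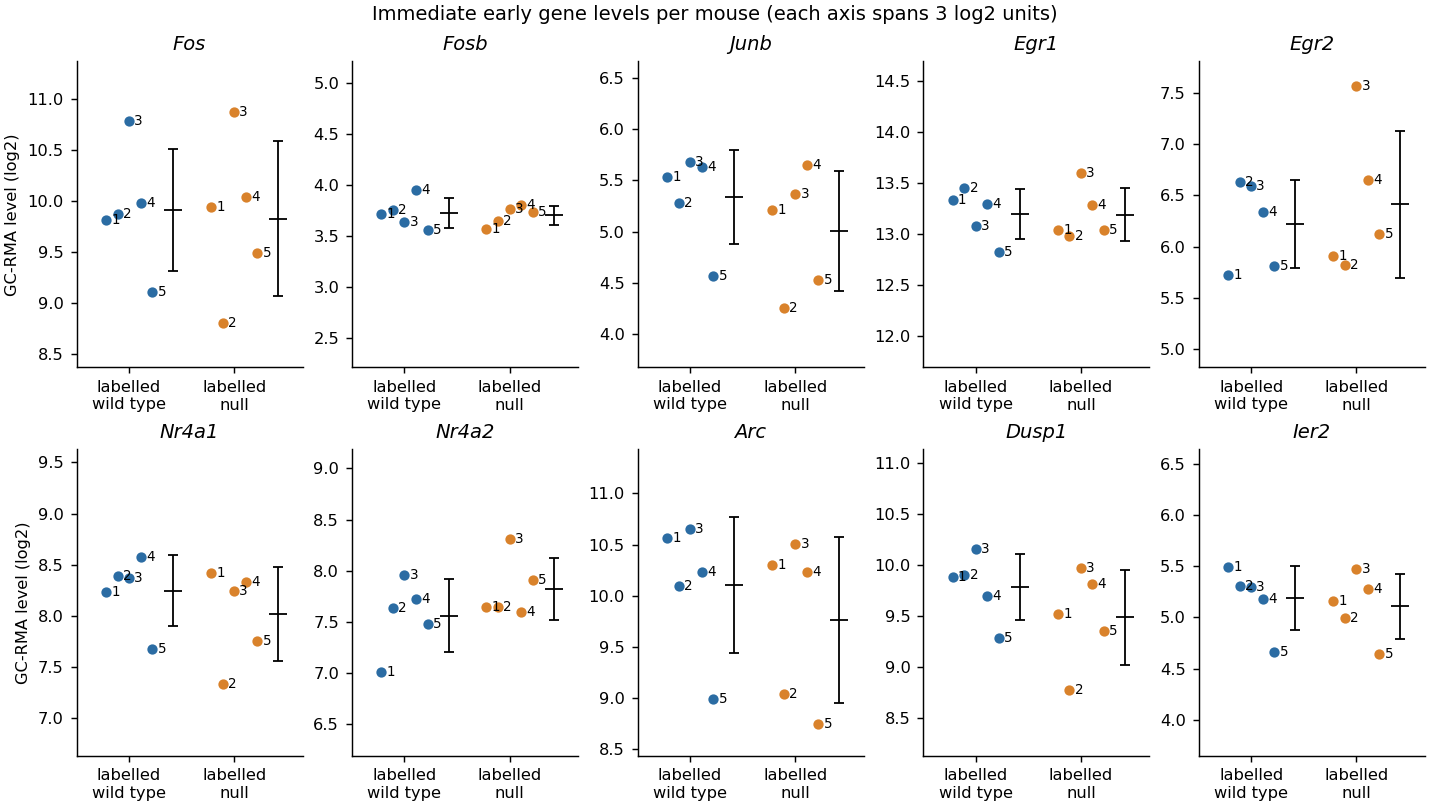
GC-RMA level (log2) of each gene by its brightest probe set, 1 point for each mouse with its replicate number, with the mean and SD of the 5 mice of each label at the right of the points. Wild type mouse 5 and null mice 2 and 5 sit low for Fos, Junb, Nr4a1, Arc, Dusp1 and Ier2, and null mouse 3 is the highest for Fos, Egr1, Egr2 and Nr4a2.

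The spread between mice was wide for most of these genes. Over the 10 genes the median SD was 0.41, against 0.12 for all probe sets and 0.18 for the 7827 with a mean of at least 5. The SD was 0.72 for Arc and 0.64 for Fos, which 0.137% and 0.274% of all probe sets reached, and 0.57 for Egr2 and 0.53 for Junb (0.491% and 0.734%). It was 0.41 for Dusp1, 0.40 for Nr4a1, 0.34 for Nr4a2 and 0.30 for Ier2, all within the widest 10% of probe sets. Egr1 (SD 0.24, reached by 13.8%) and Fosb (50.2%) were not among these. Among the 7827 alone the shares were higher, at 0.332% for Arc, 0.664% for Fos and 29.8% for Egr1. There Nr4a2 (11.4%) and Ier2 (16.1%) were no longer within the widest 10%. Wild type mouse 5 was among the 3 lowest mice for all 10 genes, null mouse 2 for 8 and null mouse 5 for 7, while null mouse 3 was among the 3 highest for 8. For 7 of the genes the 3 lowest mice were exactly these.

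**Figure D2:**
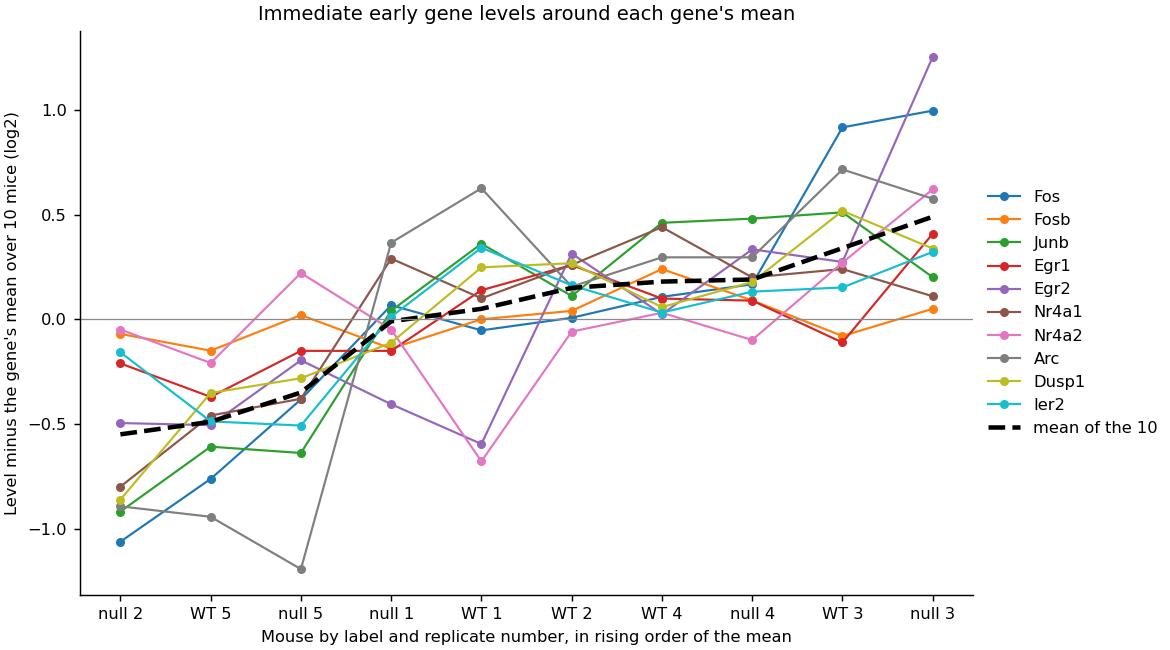
Level of each gene in each mouse minus its mean over the 10 mice (log2), with the mice in rising order of the mean of the 10 genes (dashed black line), which runs from -0.55 in null mouse 2 to 0.49 in null mouse 3. The left 3 mice are low for most genes, Fosb stays near 0, and Nr4a2 has its lowest point in wild type mouse 1.

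The comparison of the labels asks whether loss of full-length FE65 goes with another level of these genes. No member passed the test: in limma's fit 0 of 12 probe sets had an adjusted p under 0.05, as did 0% of all 22626, and 0 had an unadjusted p under 0.05, against 3.67% of all. The methods' t-test also called 0 of 12 at either threshold. Differences are given as labelled null minus labelled wild type, and this direction opposes the study's. The study lists a Gprc5b probe set as higher in null mice, and by RT-PCR it found the same region higher in null forebrains. For this probe set the mean was 6.16 on the arrays labelled null and 7.39 on those labelled wild type. The difference was -1.23 (SE 0.36, exact permutation p = 0.00794, limma adjusted p = 0.999). Which genotype each label stands for could not be settled here. Arc, with the widest difference downward, differed by -0.34 (95% interval -1.25 to 0.57, exact permutation p = 0.46), and Junb by -0.33 (-0.98 to 0.32, exact permutation p = 0.302). The difference was -0.29 for Dusp1 (-0.79 to 0.20), -0.23 for Nr4a1 (-0.73 to 0.27) and -0.09 for Fos (-0.92 to 0.75). It was 0.26 for Nr4a2 (1450750_a_at, -0.15 to 0.66) and 0.20 for Egr2 (1427683_at, -0.53 to 0.93). Egr1 (-0.01), Fosb (-0.02) and Ier2 (-0.08) had nearly equal means. The groups overlapped for all 12 probe sets, the exact permutation p lay between 0.278 and 0.984, and the limma adjusted p was 0.999 for each. The median difference was -0.05 (9 lower, 3 higher), beside -0.00 over all probe sets. The labels took 16.3% of the variance of Nr4a2, 14.3% of that of Dusp1, 11% of that of Junb and under 10% of that of each other member. For 7 of the 10 genes the interval reached a 1.5-fold change or more, and with 5 mice a label the exact test can go no lower than 0.00794.

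How the genes varied together was read from the Pearson correlation (r) of their levels over the 10 mice, which are the same arrays for each pair. Of 45 pairs computed, the 9 with Arc are given apart, since its 3 low mice form a separate cluster. For these 9 no r over the 10 mice is given. In the other 36 the median r was 0.61, and 35 were positive, from -0.01 to 0.93. An r of at least 0.6 was reached by 19 of the 36 (52.8%), against 7.63% of all pairs of probe sets and 12.6% of pairs with means of at least 5, whose median r was 0.12. By a permutation test with 100000 resamples (two-sided), 17 of the 36 had a p under 0.05 and 11 an adjusted p under 0.05, with Benjamini-Hochberg adjustment over the 45 pairs. By Spearman's rank correlation (rho) no pair reached an adjusted p under 0.05: the median rho was 0.52, and the lowest adjusted p was 0.0643, for Egr1 and Ier2.

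The 5 highest r of the 36 joined Fos, Junb, Nr4a1 and Dusp1. With Ier2 added, the 10 pairs of these genes had r of 0.67 to 0.93, and 7 of them passed the adjusted threshold. The 3 that did not were those of Ier2 with Fos (0.69), Nr4a1 (0.67) and Dusp1 (0.71). Junb and Nr4a1 had the highest, r = 0.93 (adjusted permutation p = 0.0133), with rho = 0.59, and r = 0.82 without the 2 mice farthest from the median of Junb. Junb and Dusp1 had r = 0.90 (adjusted permutation p = 0.0075, rho = 0.77, r = 0.78 without 2 mice). For Fos and Dusp1, an AP-1 gene and the phosphatase that acts against MAP kinase signalling, r was 0.89 (adjusted permutation p = 0.00675, rho = 0.81), and 0.86 without 2 mice. Fos and Junb gave r = 0.81 (adjusted permutation p = 0.0201, rho = 0.79), and r = 0.81 without null mice 2 and 3, a set that keeps the other 2 of the 3 low mice. Without all 3 it was 0.20. Egr1 followed Ier2 most closely, at r = 0.79 (adjusted permutation p = 0.0248, rho = 0.88), and 0.63 without 2 mice.

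Of the 11 pairs past the adjusted threshold, 8 had r of 0.61 to 0.86 without the 2 mice farthest from the median of their first gene. Leaving out 2 mice in this way keeps at least 1 of the 3 low mice, and without all 3 the r of the 11 pairs ran from -0.47 to 0.86, with 2 below 0. The other 3 pairs fell below 0.5 without 2 mice. For Egr2 and Nr4a2 r was 0.76 (adjusted permutation p = 0.0422, rho = 0.54) and 0.33 without null mouse 3 and wild type mouse 1. For Egr1 and Egr2 it went from 0.73 to 0.42 without null mouse 3 and wild type mouse 5, and for Nr4a1 and Dusp1 from 0.84 to 0.46 without null mouse 2 and wild type mouse 5. Apart from Egr2, Nr4a2 had r of 0.52 with Fos, and r was 0.00 with Junb, 0.06 with Nr4a1, -0.01 with Ier2 and 0.17 with Dusp1. Its window above carries as many half-sites as that of Nr4a1, and a relation of these sites to the correlations was not tested. Fosb, dim throughout, had r of 0.15 to 0.64 with the 8 others, and none of these passed the adjusted threshold.

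The correlations were lower without the 3 low mice. These were the 3 lowest for 7 of the genes, so leaving them out narrows the range of most genes. A narrower range can by itself lower r, so a low r among the others does not show that the genes vary apart. Among the other 7, a set chosen after the levels were seen, the median r over the 36 pairs was 0.22, 24 were positive, and of all 45 pairs 0 had an adjusted exact permutation p under 0.05 (4 unadjusted). Junb and Nr4a1, the closest of the 36 over 10 mice, had r = 0.10 there, Fos and Junb 0.20, Junb and Ier2 0.03, Fos and Nr4a1 -0.28 and Nr4a1 and Dusp1 -0.47, each with an adjusted exact permutation p of 0.836 or more. Nr4a1 and Ier2 went from 0.67 to -0.88 (exact permutation p = 0.00972, adjusted 0.219, rho = -0.82). Other pairs still had a high r: Fos had r = 0.67 with Dusp1 and 0.74 with Egr2. Fos and Nr4a2 went up, from 0.52 over 10 mice to 0.83 (exact permutation p = 0.00258, adjusted 0.116, rho = 0.79). Egr2 and Nr4a2 had r = 0.86 among the 7 mice (exact permutation p = 0.0242, adjusted 0.363, rho = 0.43). Arc within these 7 had r = 0.63 with Fos (exact permutation p = 0.173, rho = 0.25), 0.58 with Dusp1 (p = 0.179, rho = 0.43), 0.55 with Ier2 (p = 0.207, rho = 0.32) and 0.34 with Junb (p = 0.437, rho = 0.32). With Nr4a1 it had r = -0.51 (exact permutation p = 0.242, rho = -0.43), and its adjusted p was 0.806 or more with every gene. The 3 low mice are too few for a correlation of their own.

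**Figure D3:**
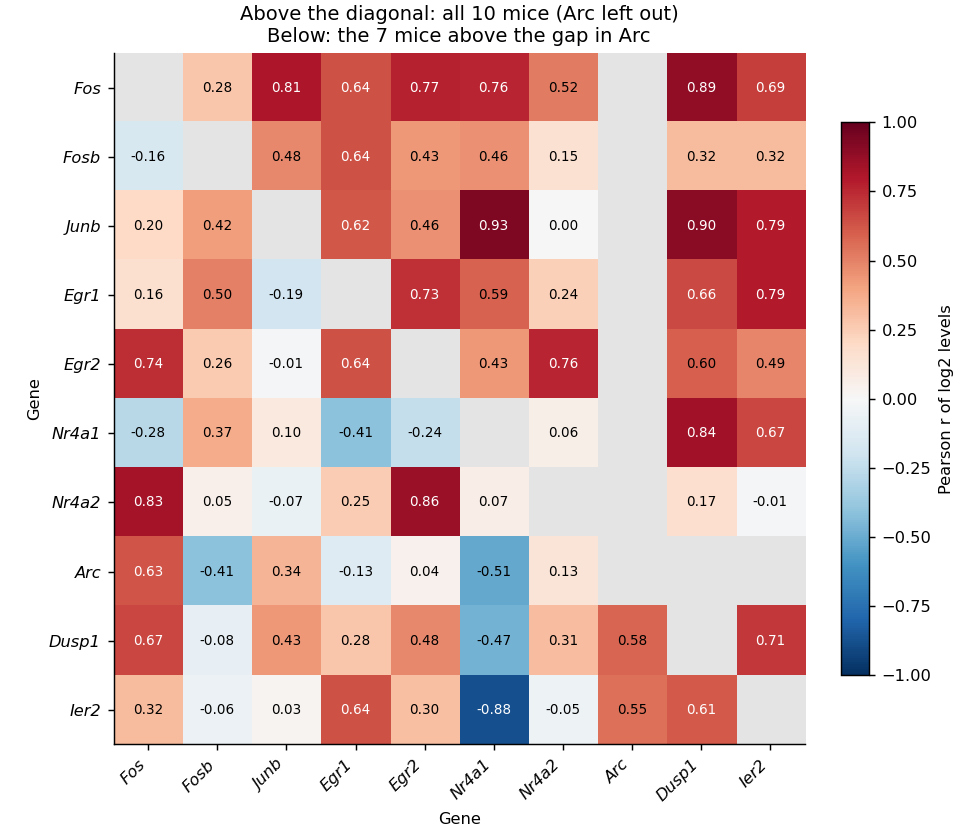
Pearson r of the log2 levels of each pair of genes, over all 10 mice above the diagonal, with Arc left grey, and over the 7 mice above the gap in Arc below it. The cells above are mostly red (median 0.61), and those below are mixed (median 0.22 over the same 36 pairs), with Nr4a1 and Ier2 at -0.88.

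The pairs were also taken about the mean of each label, so that the difference between labels is removed. The 36 then had a median r of 0.64, with 0.83 for Fos and Junb and 0.94 for Fos and Dusp1. Over all 45 pairs 8 passed the adjusted threshold in place of 16. Here the mice were permuted only within each label, so that the 2 counts come from different tests. Set against the mean of the 9 other genes, Fos had r = 0.93, which 0 of the 22614 other probe sets reached. Dusp1 (0.89) was matched by 2 of them, Junb (0.87) by 5, Arc (0.85, taken over both of its clusters of mice) by 12, Nr4a1 (0.82) by 35 and Ier2 (0.79) by 58. Egr1 (0.76) was matched by 119 and Egr2 (0.69) by 286, and Fosb (0.43) and Nr4a2 (0.28) by 11.4% and 25.1%. The first principal component of the 10 scaled genes held 64.1% of their variance and the second 16.7%.

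Across all probe sets, limma was fitted with the Fos level and the label as terms, so that a slope is the log2 change per log2 unit of Fos. No probe set of 22625 passed an adjusted p of 0.05 (0%). At an unadjusted p under 0.05, 9 of the 11 member probe sets other than Fos had a positive slope and 0 a negative one, while 1.45% of all probe sets had a positive slope at that p and 1.07% a negative one. Dusp1 had the smallest p of all positive slopes, at 0.55 (SE 0.07, limma adjusted p = 0.5). The slope was 0.90 for Arc (SE 0.20), 0.65 for Junb (SE 0.14) and 0.70 for Egr2 (1427683_at, SE 0.17), in places 9, 10 and 18 of that order, each with a limma adjusted p of 1. Nr4a1 (0.46, SE 0.13), Ier2 (0.32, SE 0.11) and Egr1 (0.24, SE 0.10) had shallower slopes. The 2 outside the threshold were Fosb at 0.05 (SE 0.06) and Nr4a2 (1450750_a_at) at 0.29 (SE 0.13), in place 342. Without the 3 low mice 5 of the 11 were positive at an unadjusted p under 0.05. They were Dusp1 (0.35) and both probe sets of Egr2 and of Nr4a2 (1450750_a_at at 0.70). Arc at 0.32, Junb at 0.12 and Nr4a1 at -0.06 were not among them.

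**Figure D4:**
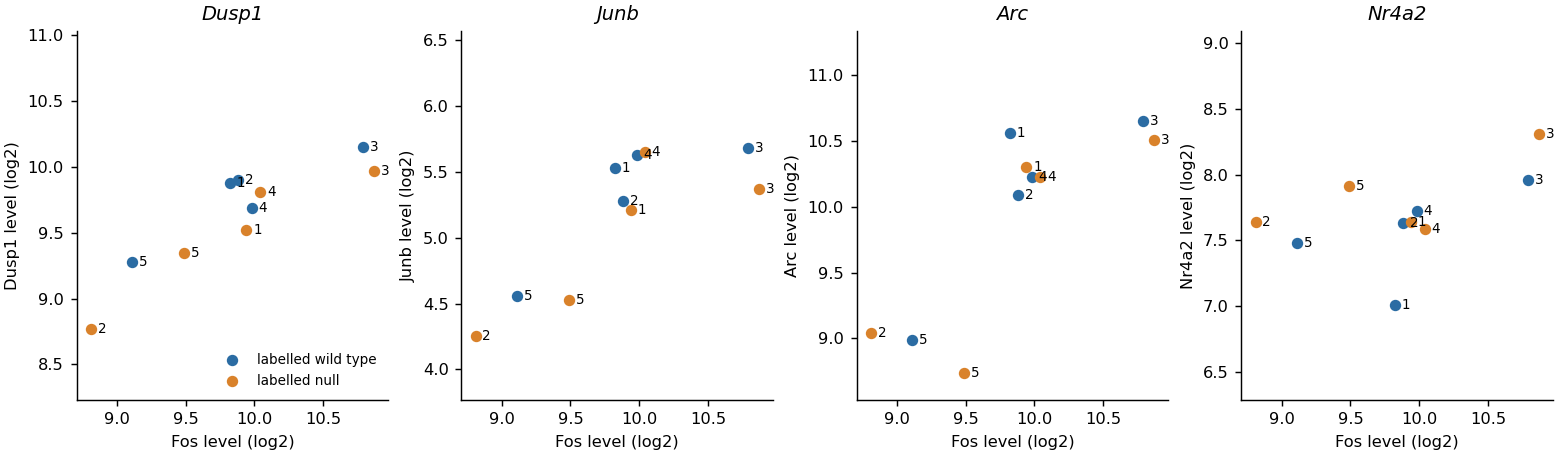
Levels (log2) of Dusp1, Junb, Arc and Nr4a2 against that of Fos, 1 point for each mouse with its replicate number, coloured by label. Dusp1 is lowest in the 3 mice with the lowest Fos and highest in mouse 3 of each label, with no steady rise in between. Junb and Arc separate 3 low mice from 7 high ones, and Nr4a2 has no such step.

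Other genes of the early response followed the 10 only in part. Of 18 other immediate early transcription factor genes, 16 were measured, 8 of them with a mean of at least 5. Their median r with the mean of the 10 genes was 0.31 (all probe sets 0.07), and at an unadjusted p under 0.05 3 of the 16 had a positive slope on Fos and 0 a negative one, where 1.45% and 1.07% of all probe sets did. Their r was positive for 10 of 16 and went down to -0.43. Klf4, a zinc finger factor, had r = 0.78 (5.90 to 7.36, slope 0.57, SE 0.15), and Klf10, a factor induced by TGF-beta, r = 0.71 (8.30 to 9.44, slope 0.40, SE 0.10). Klf2 (r = 0.78, mean 3.06) and Fosl2 (r = 0.53, mean 2.42), a Fos relative, were dim. Of 25 effectors and regulators, 22 were measured, with a median r of 0.42 and an r above 0 for 18 of them. They had 4 positive slopes on Fos at that p and 0 negative, beside the same 1.45% and 1.07%. Dusp6, which inactivates the kinase ERK, had r = 0.82 (9.93 to 10.80, slope 0.32, SE 0.09) and Ier5 r = 0.69. Ccn1, a matrix protein (r = 0.71), and Trib1, a pseudokinase (r = 0.70), were dim at 2.55 and 2.46.

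Of 13 slower activity-dependent genes, which respond after the immediate early ones, 10 were measured. Their median r was -0.04, from -0.29 to 0.26, and r was above 0 for only 4 of the 10. At an unadjusted p under 0.05, 0 of the 10 had a slope on Fos in either direction, a share near the 1.45% and 1.07% of all probe sets. The 4 above 0 were Penk, an opioid peptide precursor (r = 0.26), Bdnf, a growth factor of neurons (0.25), Pcsk1, a prohormone convertase (0.23, dim), and Inhba, an activin subunit (0.06, dim). Of the 9 glucocorticoid-responsive genes, all measured, Per1, a clock gene that is itself induced as an immediate early gene, had r = 0.85 (6.00 to 7.15, slope 0.51, SE 0.11, limma adjusted p = 1) and was the only 1 of the 9 with such a slope. Mt2, a metallothionein (0.44), Sult1a1, a sulfotransferase (0.44, dim), and Tsc22d3, a classical target of the receptor (0.30), had lower r. No list had a member with an adjusted p under 0.05 between the labels.

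**Figure D5:**
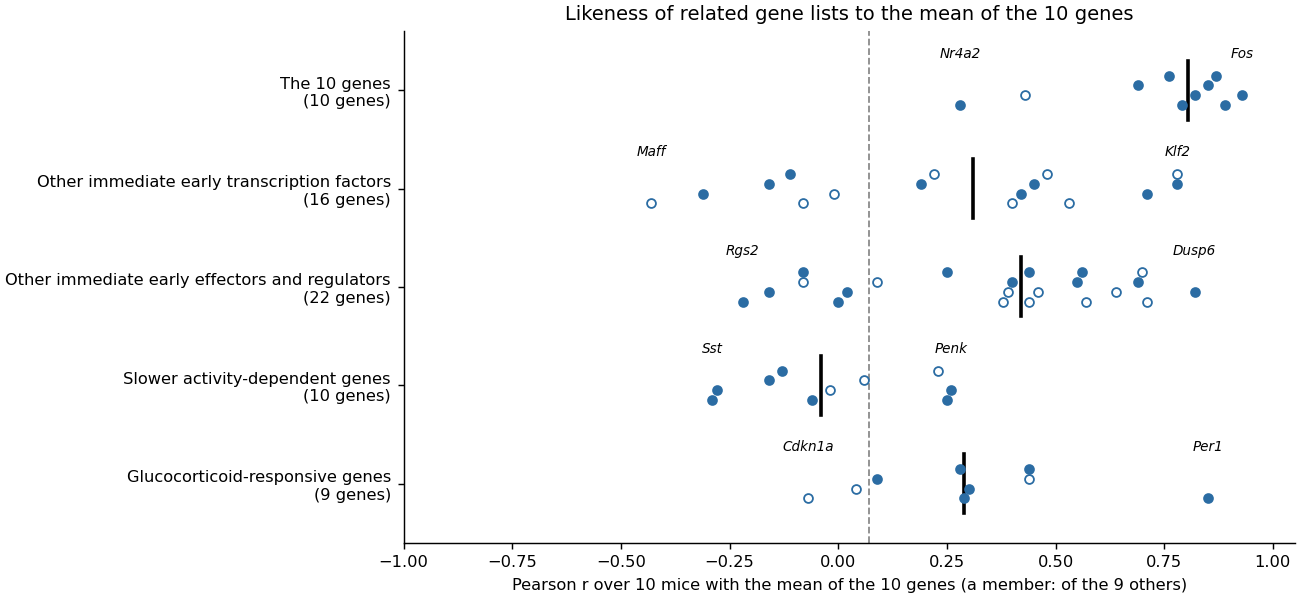
Pearson r over 10 mice of each gene with the mean of the 10 genes, by list, and of each of the 10 with the mean of the 9 others. Filled points have a mean of at least 5, open points are dim, black bars are list medians (0.80, 0.31, 0.42, -0.04 and 0.29 from the top), and the dashed line is the median of all probe sets (0.07).

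Among other probe sets with a mean of at least 5 and 1 annotated gene, the most like the mean of the 10 genes over the 10 mice were named by that r alone. Frmd6, a FERM domain protein of the Hippo pathway, came first at r = 0.91 (0.96 within labels). It stood at 6.08, 6.07, 6.05, 6.01 and 5.72 in labelled wild type and at 6.06, 5.70, 6.39, 6.26 and 5.85 in labelled null mice, with the same 3 mice lowest. Per1 (0.85) followed, then Tiparp, an ADP-ribosyltransferase induced through the aryl hydrocarbon receptor, by both its probe sets (0.85 and 0.81), and Dnajb5, an HSP40 family cochaperone, by both of its own (0.85 and 0.83). Tiparp (1426721_s_at) also had r = 0.88 among the 7 mice. Dusp6 (0.82), Ccnd2, a D-type cyclin (0.80), Acin1, a factor of RNA processing (0.79), and the noncoding RNA Rian (0.79) completed the 10. The most opposed were Zdhhc14, a palmitoyltransferase (-0.91), Timm22, of the mitochondrial import machinery (-0.88), Pdap1 (-0.87), Map2k4, a kinase upstream of JNK (-0.83), and Lias, a lipoic acid synthase (-0.83). Zdhhc14 was highest in null mice 5 and 2 and wild type mouse 5 (8.76, 8.62 and 8.53, against 7.92 to 8.30). These were the extremes of many probe sets, and they carry no test.

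Measures of the arrays and of other cell types were set beside the Fos level. Over 13 of them (the array median, the 3' minus 5' signal of Actb and Gapdh, and the summed level of 10 marker lists), r with the Fos level ran from -0.55 to 0.65, and none had an adjusted permutation p under 0.05 (lowest 0.517 for r and 0.438 for rho). Striatal markers, 3 of 6 measured, of which Drd2 was near background at 1.90 and Rgs9 well measured at 6.98, had r = 0.65 (permutation p = 0.0415, rho = 0.61, r = 0.78 without 2 mice). Their summed level spanned 7.15 to 7.59 in labelled wild type and 7.07 to 7.45 in labelled null mice. The summed level of the 3 microglial markers, of which Cx3cr1 (mean 5.84) and Csf1r (7.03) were measured well and Aif1 was near background at 2.05, had r = -0.55 with Fos (permutation p = 0.102, rho = -0.49, r = 0.02 without 2 mice). It spanned 7.53 to 7.70 in labelled wild type and 7.39 to 7.72 in labelled null mice. The markers differed: the slope on Fos was -0.29 for Cx3cr1 (SE 0.07), -0.01 for Csf1r (SE 0.05) and 0.01 for Aif1 (SE 0.05). The 3' minus 5' signal of Gapdh had r = -0.53 (permutation p = 0.119, rho = -0.62, r = -0.59 without 2 mice). Their part in the shared variation was not tested. In such bulk tissue, fewer cells that express a gene and less RNA in each cannot be told apart.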

How the data were processed

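RNA of 10 cerebral cortices, 5 mice of each label, was measured on Affymetrix mouse arrays. The deposited values are log2 levels computed by the authors with GC-RMA, which corrects background by probe GC content, normalizes arrays and summarises probe sets (version not given in the sources used here). Of 22690 probe sets, 64 controls were left out and 22626 tested. The platform annotation gave 20380 of them 1 gene, 691 several and 1555 none, and symbols were updated through GRCm38.p6. The members and lists were chosen with earlier results of these data known.

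Group differences and slopes on Fos were fitted with limma 3.58.1 in R 4.3.3 (lmFit, eBayes), with Benjamini-Hochberg adjustment over all probe sets and a threshold of 0.05. Fits and correlations were tested on simulated data. For arrays, their number limits the precision. Each gene was represented by its brightest probe set. Single probe sets were also tested by an exact permutation test over 252 splits (two-sided), and pairs of genes by permutation with 100000 resamples in Python 3, exact for fewer than 10 mice. For residuals from label means the mice were permuted only within each label, over all such orders. A gene's mice were taken as separate clusters where the widest gap was over 50% of its range. All members were named, with at most 4 genes of each list, by their r with the mean of the 10 centred genes, and the 10 probe sets most like and 5 most opposed to that mean. Alternatives were a replicate block, median centring, quantile normalization, no dim probe sets, values under 4 raised to 4, a trended robust variance prior, the methods' t-test, Arc or Egr1 in place of Fos, Spearman's rho, residuals from label means, means over probe sets, and leaving out arrays. The authors' own comparisons were not used.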

Additional observations from a re-analysis of the deposited data

Results flagged for a closer look

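In labelled null mouse 3 the dim probe set 1427682_a_at of Egr2 stood at 3.76, far from the next highest mouse of that label at 2.55, a gap of 0.80 of the range of the 5 mice. It was the 1 such case among 24 tests of 12 probe sets in 2 groups, and chance gives about 1 in 20. The other Egr2 probe set was highest in the same mouse, at 7.57.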

How the results depend on the processing

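Under every alternative, 0 of the member probe sets tested (12, or 9 where dim ones were left out or values raised to 4) differed between the labels at an adjusted or an unadjusted p under 0.05, and the median difference ran from -0.15 to 0.00. With the replicate block the limma p was 0.0572 for Arc, 0.0669 for Junb and 0.0598 for Nr4a2 (1450750_a_at). Without the block these were 0.426, 0.284 and 0.189. For every other member probe set the limma p with the block was 0.14 or more. Of 198 alternative values of single differences 17 changed sign. With quantile normalization Egr1 was at 0.03. Without 1 mouse, the differences of Fos ran from -0.35 to 0.17, of Fosb from -0.06 to 0.04, of Egr1 from -0.11 to 0.06, of Egr2 (1427683_at) from -0.09 to 0.35, of Nr4a2 (1450749_a_at) from -0.09 to 0.04 and of Ier2 from -0.21 to 0.04. The cause was not tested.

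Of 11 probe sets, 9 had a positive slope on Fos at an unadjusted p under 0.05. The replicate block left 5, as did the 7 mice above the gap in Arc, an alternative chosen after seeing the data, where Fosb was at -0.03 and Nr4a1 at -0.06. Without 1 mouse there were 6 to 10, and 0 passed an adjusted p under 0.05 in any setting. Over all probe sets, same-numbered mice deviated together at r = 0.46 for number 1 and 0.05 to 0.08 for numbers 2 to 5. Of 10 arrays 2 correlated best with their own number, so the numbers were not taken as pairs. For the members, the 2 highest mice for Fos were mouse 3 of each label. Wild type mouse 5 was among the 3 lowest for 10 genes and null mouse 5 for 7. Whether same numbers mark littermates is not known, and the permutation tests of gene pairs take the mice as unrelated. With the block the median r of the 45 pairs was 0.69.

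Over all 45 pairs the median r was 0.64, and 16 passed an adjusted p under 0.05. With Spearman's rho 0 passed (13 unadjusted), without the highest and the lowest mouse 7, and among the 7 mice 0, with a median r of 0.20. With residuals from label means, for which mice were permuted only within each label, 8 passed. Leaving out 1 mouse gave a median r of 0.53 to 0.66 and 3 to 17 pairs: 3 without wild type mouse 5, 6 without null mouse 2 and 9 without null mouse 5. With 10 arrays, and 3 of 12 member probe sets dim, small differences were not detectable.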
